A study of Mus musculus with 52 samples.

Results

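The last interval of a regeneration time course in mouse liver is described here: 3 arrays taken 3 months after partial hepatectomy against 5 arrays taken 2 or 4 weeks after it. The members were chosen by their titles alone. The 3-month replicates 1 to 3 were set against the 2-week replicates 1 and 2 and the 4-week replicates 2 to 4, so 8 of the 52 arrays of the series enter the contrast. All mice were labelled as male C57Bl6/N animals, 8 to 12 weeks old when they entered the study, on a standard diet, and all 8 livers had undergone surgical removal of most of their mass. The 5 untreated controls carried no operation. Liver RNA was read on Affymetrix whole-genome mouse arrays, on which each gene is measured by 1 or more sets of short probes. Values are log2 expression, a difference of 1 is a 2-fold change, and the error of a difference is its standard error.

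Liver regrowth after hepatectomy is driven by hepatocytes that enter the cell cycle within days, while stellate, endothelial and Kupffer cells divide later and send signals back to them. Mass is largely restored within the first weeks, after which proliferation stops and tissue architecture is remodelled. Signals of the transforming growth factor beta family, which include activins and bone morphogenetic proteins (BMPs), restrain hepatocyte growth and regulate iron handling, while growth hormone acts on hepatocytes through STAT5 and sets insulin-like growth factor output.

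Several limits bear on every value below. A mouse at 3 months is older than a mouse at 2 or 4 weeks, so age and time after the operation cannot be told apart. The arrays were made from whole liver, in which fewer cells of a type and less RNA per cell cannot be told apart. Nothing in the labels says that each array is a different mouse, so the p-values rest on the spread from array to array, which may be technical. No sham-operated or age-matched livers were analysed here, and the hour of day was not given in the sources used here. The 4-week array titled replicate 1 was left out by the rule. Over the 2000 most variable genes it correlated at 0.94 with the mean of the 12-hour arrays and at -0.50 with the mean of the other 4-week arrays. Each of the other 8 arrays correlated best with its own group. The third 3-month array did so at 0.56, the lowest of the 8. Hepatocyte plasma proteins averaged 12.28 to 12.33 on the 3-month arrays and 12.17 to 12.31 on the 2-4 week arrays, as a liver label requires, and their 25 measured members gave no call. Hybridization control spikes averaged 9.85 ± 0.34 (SD, n = 3) at 3 months and 10.06 ± 0.17 (SD, n = 5) at 2-4 weeks, which did not differ in a two-sided exact permutation test (p = 0.29; the smallest p this design allows is 0.036). The poly-A control spikes averaged 5.00 ± 0.61 (SD, n = 3) against 5.63 ± 0.58 (SD, n = 5), with p = 0.18 in the same exact test. Xist, which marks female cells, stood at 2.51 to 3.81 on the 8 arrays, while 3 arrays of other groups in the pooled fit had a high level, up to 9.485, against their male label.

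At 3 months 979 of 18194 genes differed from the 2-4 week arrays at an adjusted p under 0.05 in limma with Benjamini-Hochberg adjustment, which is 5.38% of the genes tested. Of these, 552 were higher (3.03%) and 427 were lower (2.35%). Changes were mostly small: 149 of the called genes differed at least 2-fold (0.819% of all genes), and among these falls outnumbered rises, 102 to 47. The arrays of both sides did not overlap at all for 890 of the 979 called genes, which are 4.89% of all genes tested. Over all genes tested, called or not, 4272 did not overlap (23.5%). The 2-week and 4-week arrays that form the reference differed from each other in 1 gene at the same threshold (0.0055%) and in 330 genes at an unadjusted p under 0.05 (1.81%). That gene was Tubb2a, a beta-tubulin, at a mean of 7.20 at 2 weeks and 9.97 at 4 weeks (difference 2.76 ± 0.48, adjusted p = 0.014). Among the 4549 genes with the lowest mean level 84 rose and 69 fell, and among the 4549 with the highest 174 rose and 114 fell. Tested probe set by probe set, 2039 of 34958 sets were called (5.83%), in 1859 genes.

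**Figure D1:**
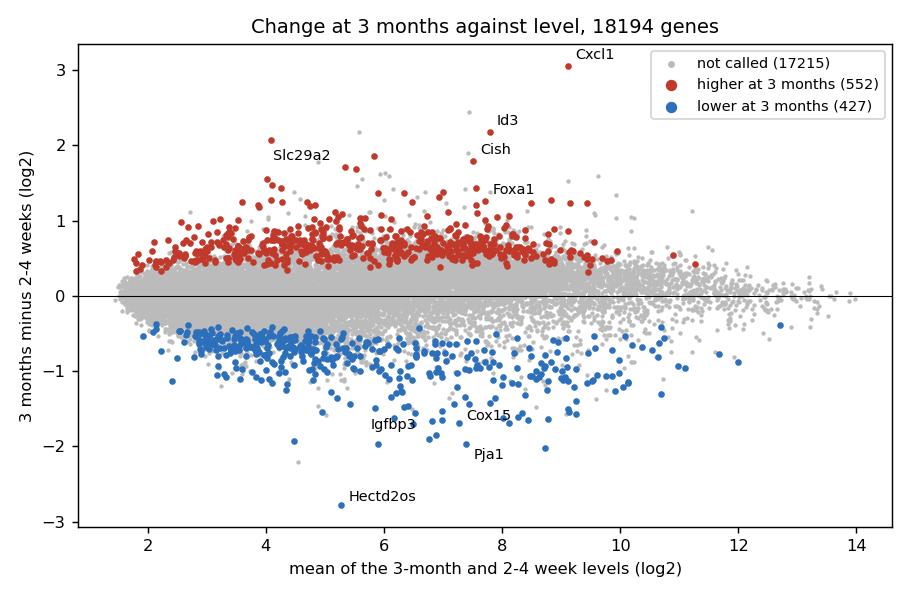
Change from 2-4 weeks to 3 months (log2, vertical axis) against the mean level of both sides (log2, horizontal axis), 1 point per gene. The 552 genes called higher are red, the 427 called lower are blue, and Cxcl1 at 3.06 and Hectd2os at -2.78 mark the ends of the called range.

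The number of calls depended on which arrays were used. Leaving out 1 array at a time gave between 196 and 857 genes. Leaving out 3-month replicate 3 left 196 genes, leaving out 3-month replicate 2 left 414 and leaving out 3-month replicate 1 left 478. Without 4-week replicate 4 it was 467, without 2-week replicate 2 it was 546, without 4-week replicate 2 it was 596 and without 4-week replicate 3 it was 648. Putting the 4-week array titled replicate 1 back gave 771 genes, 678 of them among the 979. The spread used in the test was pooled over all 12 groups of the series, and leaving out 6 arrays of other groups that stand apart raised the count to 2027, while a fit of the 8 arrays alone gave 2175 with 3 groups and 2531 with 2 groups. The hybridization control level as a covariate left 482 genes and the poly-A control level 584. Against the 4-week arrays alone 412 genes were called, and against the 2-week arrays alone 9. Among 58 called genes that were picked by rule for description, 11 stayed called whichever of the 8 arrays was left out, namely Id3, Slc39a2, Slc29a2, Mylpf, Cd79a, Hectd2os, Pja1, Cox15, Frmd4b, Psmb4 and Psmc4.

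The inhibitors of DNA binding, Id proteins, lack the part that binds DNA and hold other helix-loop-helix factors inactive. Their genes are textbook targets of BMP receptors acting through SMAD proteins. Id3 stood at 8.85, 8.66 and 9.12 on the 3-month arrays, at 6.85 and 5.69 on the 2-week arrays and at 7.23, 6.89 and 6.83 on the 4-week arrays. Every 3-month array lay above every 2-4 week array. The difference was 2.18 ± 0.36, or 4.53-fold (adjusted p = 0.0011), and it was 1.79 with the 4-week array titled replicate 1 put back (adjusted p = 0.011). Over 25 alternative settings the adjusted p for Id3 ran from 5.7e-05 to 0.016. Id2 stood at 9.98, 10.02 and 10.13 at 3 months, at 8.43 and 8.80 at 2 weeks and at 9.37, 8.65 and 8.82 at 4 weeks. Again the arrays did not overlap. The difference was 1.23 ± 0.32 (adjusted p = 0.022). It kept its call in 5 of 8 fits with 1 array left out and missed it with the 4-week array titled replicate 1 put back (1.01, adjusted p = 0.065, within 0.00074 to 0.12 over all alternatives). A further Id2 probe set of similar brightness gave -0.43 ± 0.35 without a call, and a dimmer set gave 1.64 ± 0.42, so the gene's probe sets disagree. Id1 read 6.50, 6.16 and 6.37 at 3 months against 4.86 to 6.16 at 2-4 weeks, a difference of 0.90 that did not pass (95% interval -0.04 to 1.84, adjusted p = 0.23), and Id4 gave 0.39 (adjusted p = 0.38).

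Smad6 encodes an inhibitory SMAD that BMP signals induce and that damps the BMP receptor. It read 6.19, 5.74 and 5.11 at 3 months, 4.68 and 4.36 at 2 weeks and 5.05, 4.84 and 4.50 at 4 weeks. The sides do not overlap, but the lowest 3-month array lies only just above the highest 4-week array. The difference was 0.99 ± 0.29 (adjusted p = 0.034), called in 4 of 8 fits with 1 array left out. With 3-month replicate 1 left out its adjusted p was 0.21, and with the 4-week array titled replicate 1 put back it was 0.062, within 0.003 to 0.21 over all alternatives. Smad7, the inhibitor shared with activin and transforming growth factor signals, gave -0.10 ± 0.25 without a call. On the list of 19 measured genes of the activin, BMP and TGF-beta axis, Id2, Id3 and Smad6 rose, 0 fell and 16 did not pass, where 3.03% of all genes rose. The list's median change was 0.17 against 0.04 over all genes. Among the 4548 genes with a mean level of 4.92 to 6.97, where the list's mean lay, the median was 0.14. The activin subunits Inhba (0.05), Inhbb (-0.34), Inhbc (0.19) and Inhbe (0.03) did not pass, nor did the antagonists Fst (-0.20) and Fstl3 (-0.49).

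Beyond that list, 4 further genes of these pathways were picked after their values were seen and are given as values. Bmp4, a ligand, read 5.44, 5.56 and 5.30 at 3 months against 3.83 to 4.45 at 2-4 weeks (1.2 ± 0.31, adjusted p = 0.021, called in 4 of 8 fits with 1 array left out). Smad5, a SMAD that BMP receptors phosphorylate, read 7.04, 6.97 and 7.14 against 6.06 to 6.34 (0.85 ± 0.19, adjusted p = 0.0095, called in 7 of 8), and its dimmer probe sets gave -0.20 and -0.10 without a call. Acvr2b, a type II receptor, differed by 1.04 ± 0.23 (adjusted p = 0.009), and its dimmer probe sets gave 0.31 and -0.21 without a call. Smurf1, a ubiquitin ligase of this pathway, differed by 0.49 ± 0.14 on its brighter probe set (adjusted p = 0.035) and by -0.53 ± 0.16 on the other. Bmp2 (0.13) and Bmp6 (0.20), ligands made by sinusoidal endothelial cells, did not pass.

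Promoter letters of the genes above show what these windows hold. RefSeq windows of GRCm38.p6, 250 bases before to 50 after the annotated start, were searched on both strands for the SMAD palindrome GTCTAGAC and the GC-rich element GGCGCC, whose matches do not overlap in these genes. GTCTAGAC was found in 70 of 32851 windows (0.213%), among them that of Smad6, and GGCGCC in 3898 (11.9%), among them that of Id2. Id3 held neither. Of 448 rising genes with a window, 3 held GTCTAGAC (0.67%) against 42 of 14453 tested genes (0.291%), and 94 held GGCGCC (21.0%) against 2951 (20.4%). Capitals mark the match. The Smad6 site lies at chr9:64022047-64022072 on the minus strand, with the palindrome from base -4 to base 4 around the start, and the Id2 bases lie at chr12:25096093-25096342 on the minus strand, with the element from base -231 to -226.
Smad6: cgccaaagtGTCTAGACtggcatatg
Id2: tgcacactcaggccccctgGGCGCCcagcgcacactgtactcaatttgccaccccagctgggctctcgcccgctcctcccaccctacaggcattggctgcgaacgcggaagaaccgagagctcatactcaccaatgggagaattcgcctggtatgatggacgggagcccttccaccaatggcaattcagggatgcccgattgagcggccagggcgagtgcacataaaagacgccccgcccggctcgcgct

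Growth hormone signals through STAT5, which induces Cish and Socs2, both feedback inhibitors of cytokine receptors. Cish read 8.21, 8.22 and 8.77 at 3 months, 6.34 and 6.66 at 2 weeks and 7.22, 7.32 and 5.53 at 4 weeks. All 3 late arrays lay above all 5 earlier ones, and also above the untreated range of 5.33 to 7.91. The difference was 1.79 ± 0.47, or 3.46-fold (adjusted p = 0.021, and 1.70 with adjusted p = 0.023 when the 4-week array titled replicate 1 was put back). Cish was called in 5 of 8 fits with 1 array left out, with an adjusted p of 0.096 without 3-month replicate 3, 0.063 without 4-week replicate 4 and 0.051 without 3-month replicate 2, within 0.012 to 0.13 over all alternatives. Socs2 read 8.65, 9.76 and 8.54 against 6.81 to 8.76, so its arrays overlap, and its difference of 1.13 did not pass (95% interval -0.04 to 2.29, adjusted p = 0.23). A dim Socs2 set, at a mean level of 3.71, was called higher (1.56 ± 0.39), while its other sets gave 0.09 to 0.56 without a call. The receptor Ghr (-0.19), Stat5b (0.01), Bcl6 (-0.47), Igf1 (0.04) and Igfals (0.18) did not pass either. The interval for Igf1, -0.18 to 0.27 on its brightest set, was the narrowest among these. Its other sets gave -0.21, -0.13 and -0.48 without a call, and -0.21 and -0.48 lie outside that interval.

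The start of Cish shows a pair of STAT elements. TTCNNNGAA, the core that STAT5 recognises, was found in 2726 of 32851 windows (8.30%), and in 41 of 448 rising genes with a window (9.15%) against 1239 of 14453 tested genes (8.57%). In Cish 2 matches lie from base 1 to 9 and from 12 to 20 after the start, at chr9:107296656-107296681 on the plus strand, with both in capitals.
Cish: gttTTCCTGGAAagTTCTTGGAAatc

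Of 5 measured insulin-like growth factor binding proteins, Igfbp3 and Igfbp5 fell, and Igfbp1 (-0.80), Igfbp2 (0.23) and Igfbp4 (-0.19) did not pass. Igfbp3 encodes the main carrier of circulating growth factor and is made in liver by nonparenchymal cells. It read 5.75, 6.48 and 5.71 at 3 months, 8.09 and 7.46 at 2 weeks and 7.82, 7.75 and 7.14 at 4 weeks. No 3-month array reached any earlier array. The difference was -1.67 ± 0.39, a 3.18-fold fall (adjusted p = 0.013), and a second probe set also fell (-0.97 ± 0.28). Without 3-month replicate 3 its adjusted p was 0.068 and without 3-month replicate 1 it was 0.051, within 0.0024 to 0.11 over all alternatives. Igfbp5 read 5.33, 5.59 and 5.34 against 5.73 to 6.30 and fell by 0.62 (SE 0.18, adjusted p = 0.038), called in 2 of 8 fits with 1 array left out, while its other probe set gave 0.48 ± 0.53. Of 18 measured genes of the growth hormone and IGF axis, 1 rose, 2 fell and 15 did not pass. None of 16 male-biased and 15 female-biased liver genes, many of which follow the pattern of growth hormone release, passed in limma: Hsd3b5 gave -0.20 (95% interval -2.58 to 2.17), Cyp4a12a 0.12 and Cyp2b9 -0.34. The interval for Hsd3b5 is wide in a fit that pools the spread over all groups of the series.

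Of the hepatocyte transcription factors 3 were called higher, and for 2 of them the probe sets disagree. Foxa1, a pioneer factor that opens chromatin at liver genes, read 8.59, 8.16 and 8.29 at 3 months, 6.84 and 7.01 at 2 weeks and 7.59, 7.76 and 6.22 at 4 weeks. The arrays did not overlap, and the 3-month values lay within the untreated range of 7.80 to 8.79. The difference was 1.26 ± 0.30, or 2.40-fold (adjusted p = 0.015), called in 6 of 8 fits with 1 array left out. The adjusted p was 0.065 without 3-month replicate 1 and 0.053 without 3-month replicate 3, within 0.002 to 0.10 over all alternatives. Its relatives Foxa2 (0.90, adjusted p = 0.081) and Foxa3 (0.64, adjusted p = 0.089) did not pass. Nr5a2, a nuclear receptor of bile acid and cholesterol metabolism, rose by 0.63 ± 0.18 (adjusted p = 0.033) on its brightest probe set, but other sets gave -0.24 and -0.18. Hnf4a, the central hepatocyte regulator, read 11.46, 11.44 and 11.51 against 10.92 to 11.16 on its brightest set (0.42 ± 0.12, adjusted p = 0.037). Another bright Hnf4a set fell by 1.54 (SE 0.38) and was called as well, and the mean of its sets gave -0.08, so no direction holds for the gene as a whole. Of 16 measured factors 3 rose on the brightest set, 0 fell and 13 did not pass, where 3.03% of all genes rose. The list's median change was 0.43 against 0.04 over all genes. Among the 4549 genes with the highest mean level, where the list's mean lay, the median was 0.19. Between sides 8 of the 16 did not overlap, as did 23.5% of all genes. Cebpa (-0.11) and Prox1 (-0.20) were among the 5 below 0.

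Cxcl1, a chemokine that draws neutrophils, had the highest rise among called genes. It read 9.85, 10.17 and 11.90 at 3 months, 7.98 and 8.08 at 2 weeks and 7.11, 6.45 and 8.29 at 4 weeks. The third 3-month array was the highest and all 3 lay above the earlier ones. The difference was 3.06 ± 0.74, or 8.32-fold (adjusted p = 0.015, and 2.77 with adjusted p = 0.024 when the 4-week array titled replicate 1 was put back). Without 3-month replicate 3 the adjusted p was 0.10, within 0.0056 to 0.18 over all alternatives. All 3 of its probe sets rose (3.06, 3.04 and 2.19). Untreated livers spanned 8.06 to 10.88 and 1-week livers 9.18 to 11.44, and the 6-hour arrays had the highest mean of the series, at 11.89. The kappaB element, which NF-kappaB binds, was searched on both strands of the same windows. It was found in 535 of 32851 windows (1.63%), and in 13 of 448 rising genes (2.90%) against 273 of 14453 tested genes (1.89%). Cxcl1 held 2, at bases -89 to -80 and -71 to -62, within chr5:90890995-90891244 on the plus strand, shown with the matches in capitals.
Cxcl1: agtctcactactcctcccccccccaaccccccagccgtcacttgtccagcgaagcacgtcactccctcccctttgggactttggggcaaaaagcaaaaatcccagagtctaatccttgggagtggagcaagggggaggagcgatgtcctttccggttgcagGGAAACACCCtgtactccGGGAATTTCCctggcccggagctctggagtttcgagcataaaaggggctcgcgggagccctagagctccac

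Other inflammatory genes were mixed. Irf1, a transcription factor of interferon responses, read 7.94, 7.87 and 8.85 at 3 months against 6.92 to 7.52 and rose by 1.01 ± 0.27 (adjusted p = 0.024), with an adjusted p of 0.18 without 3-month replicate 3, the upper end of its range over all alternatives (0.014 to 0.18). It was the only one of 23 measured interferon-stimulated genes to pass. Pim1, a kinase induced by cytokines through STATs, read 7.76, 7.33 and 7.96 against 6.02 to 6.67 (1.38 ± 0.41, adjusted p = 0.039), but it lost its call in all 8 fits with 1 array left out, at an adjusted p of 0.053 to 0.14, and ran from 0.0037 to 0.14 over all alternatives. Its dimmer probe set gave 0.25 without a call. None of 24 acute phase genes passed in limma. Saa1 read 12.52, 9.50 and 13.33 at 3 months and 8.90 to 12.72 at 2-4 weeks (1.13, 95% interval -0.60 to 2.86), and Lcn2 read 7.09, 5.02 and 10.22 against 4.97 to 9.09 (0.53, 95% interval -1.38 to 2.43). In both genes 3-month replicate 3 was the highest of its group. It was also the highest for Cxcl1, Irf1, Tacc2, Rab20 and Zc3h13.

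**Figure D2:**
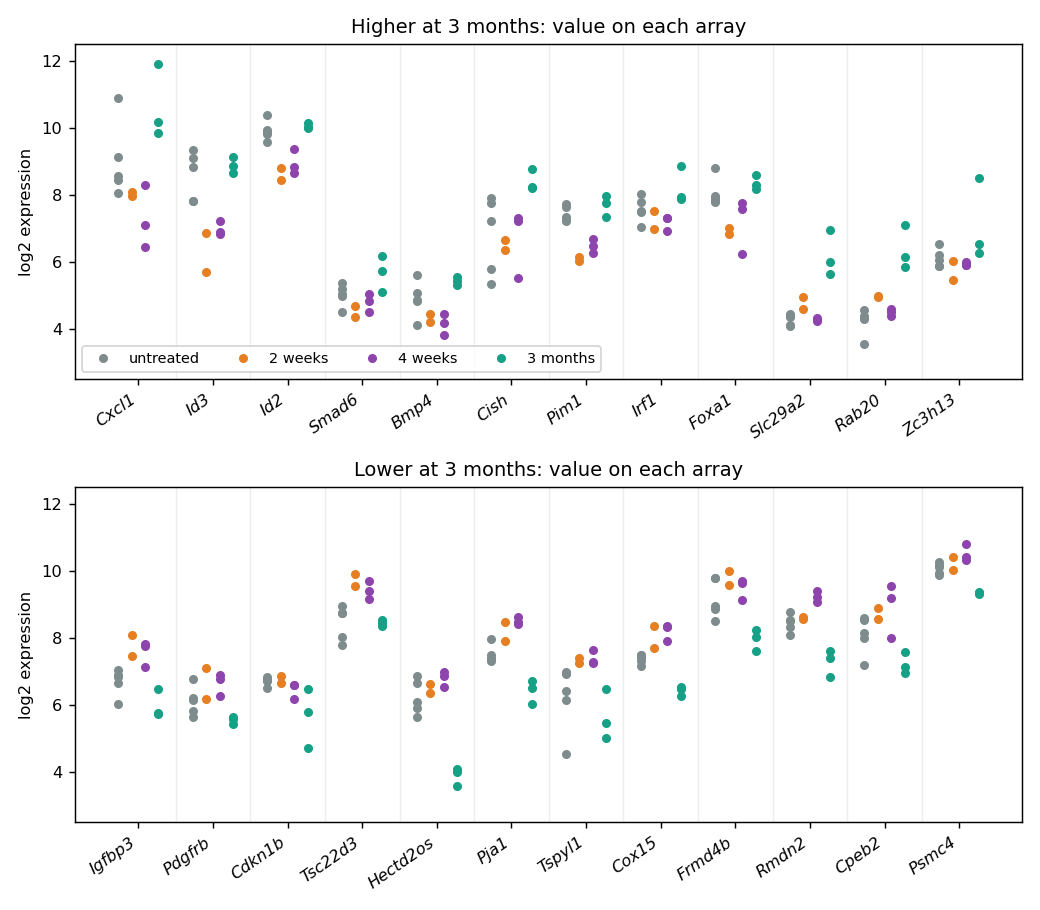
Expression (log2, vertical axis) of 12 genes higher and 12 genes lower at 3 months, 1 point per array, for 5 untreated, 2 2-week, 3 4-week and 3 3-month arrays. Id3 at 8.66 to 9.12 lies above all 5 2-4 week arrays, and Hectd2os at 3.57 to 4.09 lies below all of them and below the untreated arrays.

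Other genes among the 15 highest rises have varied roles. Slc39a2, a zinc importer, read 6.46, 4.76 and 4.14 at 3 months and 2.76 to 3.21 at 2-4 weeks, where it was below the median of all probe sets (3.97). Its difference was 2.07 ± 0.39 (adjusted p = 0.0039). Slc29a2, a nucleoside transporter, read 5.65, 5.99 and 6.94 against 4.25 to 4.94 (1.72 ± 0.30, adjusted p = 0.0015), while its dimmer probe set gave 0.07. Rab20, a GTPase of endosomes, read 6.16, 5.84 and 7.10 against 4.38 to 4.99 (1.69 ± 0.35, adjusted p = 0.0056, 0.064 without 3-month replicate 3, within 0.00036 to 0.13 over all alternatives). In all 3 genes the sides did not overlap. Every 3-month array also lay above the untreated arrays, which stood at 2.88 to 3.66 for Slc39a2, 4.08 to 4.44 for Slc29a2 and 3.54 to 4.56 for Rab20. Zc3h13, part of the complex that methylates adenosine in RNA, read 6.52, 6.27 and 8.51 against 5.45 to 6.03 (1.24 ± 0.29, adjusted p = 0.013, and 0.22 without 3-month replicate 3, within 0.0055 to 0.22), although all 3 of its probe sets rose. Tacc2, a centrosomal protein (1.43 ± 0.42, adjusted p = 0.038, and 0.26 without that array, within 0.0093 to 0.26), and Preb, an exchange factor for vesicle budding from the endoplasmic reticulum (1.28 ± 0.30, adjusted p = 0.013, and 0.093 without it, within 0.00048 to 0.26), lost their calls in the same way. Arid5b, a chromatin regulator, read 9.71, 9.69 and 9.92 against 7.79 to 8.83 (1.23 ± 0.35, adjusted p = 0.031), and Bbs10, a ciliary chaperonin, read 5.30, 5.54 and 5.12 against 3.75 to 4.42 (1.24 ± 0.29, adjusted p = 0.013). Dimmer probe sets gave 0.39 and 0.04 for Preb, -0.18 to 0.99 for Arid5b and 0.16 for Bbs10, without a call.

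Hectd2os, an RNA annotated opposite Hectd2, had the deepest fall. It read 3.57, 4.09 and 3.99 at 3 months, 6.34 and 6.63 at 2 weeks and 6.97, 6.86 and 6.52 at 4 weeks. The 3-month values are near the median of all probe sets, and untreated livers spanned 5.64 to 6.87. The fall was 6.86-fold (-2.78 ± 0.61, adjusted p = 0.0084, and -2.20 with adjusted p = 0.049 when the 4-week array titled replicate 1 was put back, within 0.00018 to 0.13 over all alternatives). At 1 week it stood at 1.63 to 4.17, also low. Pja1, a ubiquitin ligase, read 6.49, 6.70 and 6.03 against 7.90 to 8.63 and fell by 1.97 (SE 0.29, adjusted p = 0.00017), and it stayed called in all 25 alternatives, at 7.1e-06 to 0.033. Its other probe sets gave 0.34, -0.77 and 0.02 without a call. Cox15, an enzyme that makes the haem of cytochrome oxidase, read 6.27, 6.48 and 6.52 against 7.68 to 8.35 (-1.69 ± 0.30, adjusted p = 0.0016), while its other sets gave 0.42, -0.35 and -0.33.

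Of the 15 lowest named genes, Igfbp3, given above, and Frmd4b, Cpeb2 and Rmdn2 had a second probe set that was called lower. Frmd4b, a FERM-domain scaffold, read 8.03, 8.24 and 7.61 against 9.12 to 10.00 (-1.64 ± 0.33, adjusted p = 0.0056), a second set fell by 1.28 and another gave -1.03 at an adjusted p of 0.054, adjusted over all probe sets. Cpeb2, a regulator of messenger RNA tails, read 7.56, 7.13 and 6.94 against 8.00 to 9.53 (-1.62 ± 0.41, adjusted p = 0.018), and a second set fell by 1.47. Without 3-month replicate 3 its adjusted p was 0.084, within 0.002 to 0.16 over all alternatives. Rmdn2, a microtubule-associated protein, read 7.61, 7.39 and 6.82 against 8.55 to 9.38 (-1.68 ± 0.37, adjusted p = 0.0085), with a second set at -2.06 and another at 0.24. The other falls among the 15 lowest were not shared in this way. 9130016M20Rik has a single probe set (-2.02 ± 0.50). Prss23, a serine protease, fell by 1.93 (SE 0.41), and its other sets gave -0.84 and 0.19 without a call. Abtb2 fell by 1.97 (SE 0.59), called in 3 of 8 fits with 1 array left out, and its other sets gave 0.44 and 0.03. Tspyl1 fell by 1.71 (SE 0.42) and Rflna by 1.65 (SE 0.43), and their dim second sets gave 0.17 and 0.19. Pkdcc, Pdcl and Scpep1 fell by 1.90, 1.85 and 1.65, while their second sets gave 0.59, 0.09 and -0.18 without a call.

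Among list members, Tsc22d3, a glucocorticoid-induced regulator, read 8.54, 8.36 and 8.45 at 3 months against 9.16 to 9.90 and fell by 1.09 (SE 0.29, adjusted p = 0.024), called in 4 of 8 fits with 1 array left out. A set at -0.55 was called too, and a set at -0.85 was not (adjusted p = 0.12). Tsc22d3 was the only one of 23 measured clock and output genes to pass on its brightest set. Per1 (-0.16), Per2 (0.23), Nr1d1 (-0.03), Arntl (0.04) and Dbp (0.36, 95% interval -1.40 to 2.12) did not. A dimmer Per2 set was called higher (0.89 ± 0.22), while another gave 0.42 without a call. The dimmer Arntl set, at a mean level of 3.43, was called lower (-0.58 ± 0.18). Cdkn1b, the cell cycle inhibitor p27, read 6.48, 5.79 and 4.70 against 6.16 to 6.86, so the sides overlap. It fell by 0.92 (SE 0.24, adjusted p = 0.021, and 0.27 without 3-month replicate 3, within 0.0041 to 0.27 over all alternatives). Cdkn1a, the inhibitor p21, gave -0.16 (95% interval -1.30 to 0.97), and of 17 measured arrest and p53 target genes 1 rose (Zmat3, 0.70 ± 0.20) and 2 fell.

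Probe sets of the same gene often disagreed, more so for falls. For genes called higher, 145 of 197 other probe sets of adequate level (at least 1 above the median of all probe sets) moved in the called direction, or 73.6%. For genes called lower it was 106 of 202, or 52.5%, and over all genes tested it was 61.9%. Other sets called in the same direction numbered 19 for rises and 24 for falls. In 9 called genes another set was called the opposite way: Czib, Hnf4a, Mfsd1, Rb1cc1, Slc9a3r2 and Zfp148 among the rises and Dnajc14, Eif4g2 and Uba3 among the falls. Sets some of whose probes can match other sequences (those ending in x_at) made up 14.3% of falls, 3.44% of rises and 3.82% of all genes tested. For sets ending in a_at the shares were 13.3%, 12.1% and 11.9%, and for those ending in s_at 7.26%, 6.34% and 5.19%. The mean of a gene's sets called 663 genes in place of 979, 484 of them shared. A proteasome pair illustrates it: Psmc4 read 9.35, 9.33 and 9.30 against 10.01 to 10.80 (-1.06 ± 0.23, adjusted p = 0.0079) and Psmb4 10.26, 10.18 and 10.26 against 10.95 to 11.11 (-0.81 ± 0.18, adjusted p = 0.0079), both called whichever array was left out, while the second sets of these genes gave 0.42 and 0.24. Of 25 measured proteasome subunits, 1 rose (Psmd4, 0.59 ± 0.15), 2 fell and 22 did not pass. Other Psmd4 sets gave 0.32 and -0.33 without a call. Ndufb5 (-0.72 against 0.13 on its other set) was the only call among 27 respiratory chain subunits. What these probe sets detect was not tested.

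**Figure D3:**
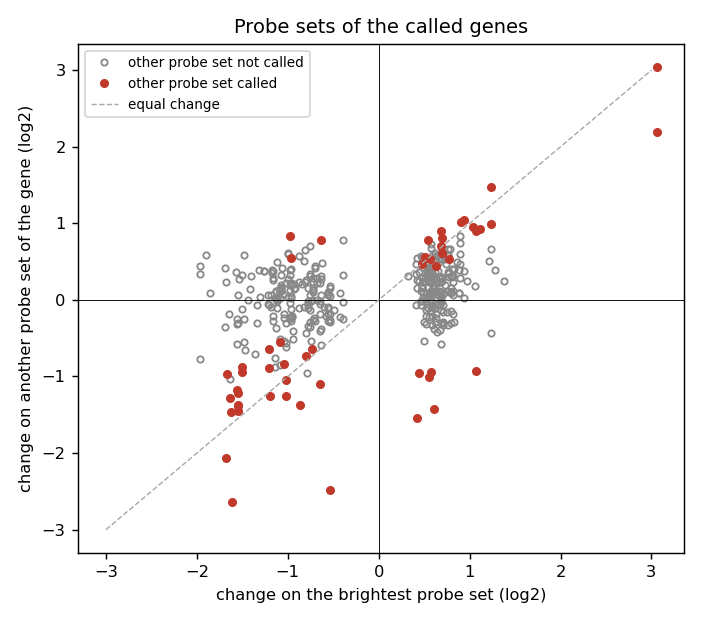
Change of the brightest probe set of each called gene (log2, horizontal axis) against the change of another probe set of the gene (log2, vertical axis), 1 point per other set of adequate level, 399 in all. To the right 145 of 197 points lie above 0, and to the left 106 of 202 lie below it.

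Across 48 gene lists 801 of 895 distinct members were measured and 33 were called, or 4.12%, below the 5.38% of all genes, with 18 higher and 15 lower. In 27 lists 0 members were called. Metabolism was the largest block among them. Cholesterol synthesis (20 measured), fatty acid and triglyceride synthesis (23), fatty acid oxidation (22), bile acid synthesis and transport (25), glucose handling (20), amino acid breakdown and urea cycle (23) and drug-metabolising cytochromes P450 (20) each had 0 calls and medians between -0.03 and 0.19. Cyp7a1, which controls the pace of bile acid synthesis, read 11.39, 11.71 and 9.47 against 10.13 to 10.92 (0.28, 95% interval -1.83 to 2.40). Alb read 13.97, 13.95 and 13.96 against 13.98 to 14.03 (-0.04, 95% interval -0.19 to 0.11). Mogat1, of fat storage, rose by 0.60 (SE 0.17, adjusted p = 0.035), called in 3 of 8 fits with 1 array left out.

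The mitosis and DNA replication lists gave no call in limma. Mki67, a marker of dividing cells, read 3.88, 3.44 and 3.63 at 3 months and 3.65 to 4.82 at 2-4 weeks (-0.62, 95% interval -2.30 to 1.07). Top2a read 3.18, 3.25 and 3.16 against 3.83 to 4.43, sides that do not overlap, but its difference of -0.94 did not pass (95% interval -2.36 to 0.49, adjusted p = 0.43). Of 25 measured mitosis genes 24 were below 0 and the list's median was -0.49, against 0.04 over all genes. Between sides 11 of the 25 did not overlap, as did 23.5% of all genes. All but 2 of the 25 lay within 1 of the median of all probe sets or below it on both sides. The pooled fit holds the days of division too, and no member passed in it. Over 25 alternatives Top2a was called in 2, at an adjusted p of 0.0076 to 0.80, and Ccna2 in 2, at 0.011 to 0.55. In DNA replication 0 of 25 passed (median -0.13). Ccnd1 read 7.66, 8.59 and 9.10 against 8.24 to 8.82 (-0.09, 95% interval -1.40 to 1.22), above the untreated range of 6.17 to 7.12 on all 8 arrays. Ccnd2, another D cyclin, was chosen after its values were seen: it read 6.10, 6.30 and 6.77 against 5.07 to 5.85 and rose by 0.89 (SE 0.26, adjusted p = 0.037), called in 3 of 8 fits with 1 array left out, while its other probe sets gave 0.11 to 0.76 without a call. In ribosome biogenesis 21 of 24 genes were above 0 and the median was 0.41. Between sides 11 of the 24 did not overlap, beside the same 23.5% of all genes. Only Heatr1 passed (0.61 ± 0.19, called in 1 of 8 fits with 1 array left out).

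Markers of other cell types were followed as lists. Among 14 Kupffer cell markers 1 passed, which was Id3, already described. The defining markers Clec4f (8.37, 7.71 and 7.20 against 6.79 to 7.35, 0.72, adjusted p = 0.18), Vsig4 (0.34), Timd4 (0.20) and Marco (0.44) did not, and the list's mean level spanned 6.96 to 7.97 at 3 months, 6.62 to 8.10 at 2-4 weeks and 5.05 to 5.77 in untreated livers. All 8 operated arrays therefore stood above every untreated array in this list. Of 16 sinusoidal endothelial markers 14 were above 0 with a median of 0.41 and 0 passed: Stab2 gave 0.72 (adjusted p = 0.11), Clec4g 0.86 (adjusted p = 0.12) and Lyve1 -0.59. Their mean level was 6.04 to 6.28 at 3 months and 5.16 to 6.10 at 2-4 weeks. The part of this shift in the rise of Id2, Id3, Smad6 and Bmp4 and in the fall of Igfbp3, which nonparenchymal cells express, was not tested.

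Of 24 stellate cell and matrix genes Pdgfrb, the receptor that drives stellate cell growth, alone passed. It read 5.63, 5.43 and 5.56 at 3 months, 7.10 and 6.18 at 2 weeks and 6.78, 6.88 and 6.26 at 4 weeks, a fall of 1.10 (SE 0.29, adjusted p = 0.022), called in 5 of 8 fits with 1 array left out. Its second probe set gave -0.11. The collagens Col1a1 (-1.15, adjusted p = 0.11) and Col3a1 (-1.13, adjusted p = 0.13) did not pass. Col1a1 read 3.96, 4.16 and 4.37 at 3 months and 4.72 to 7.16 at 2-4 weeks, where 2-week replicate 1 held the 7.16 and the others stood at 4.72 to 4.99. Acta2 gave -0.02. The mean level of the list spanned 6.04 to 6.23 at 3 months and 6.08 to 7.05 at 2-4 weeks.

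Most T and NK, B cell and neutrophil markers (13 of 14, 7 of 10 and 7 of 11) stood near the background of the arrays, against 3 of 8 MHC class II genes. Among 10 B cell and plasma cell markers Cd79a (4.65, 4.58 and 4.51 against 3.70 to 4.27, 0.62 ± 0.14, adjusted p = 0.011) and Cd79b (4.55, 5.18 and 4.86 against 3.77 to 4.37, 0.89 ± 0.22, adjusted p = 0.016) rose. They form the signalling part of the B cell receptor. Ms4a1 (-0.16), Ighm (0.17), Jchain (-0.82) and 5 others did not pass, and the list's mean level of 4.07 to 4.62 at 3 months overlapped the 4.14 to 4.67 of 2-4 weeks. A dim Ighm set, at a mean level of 3.46, was called higher (0.78 ± 0.23), while its other sets gave -0.75 to 0.43 without a call. Cd74, the chaperone of MHC class II, rose by 0.86 (SE 0.23, adjusted p = 0.023), although 2-week replicate 1, at 6.71, lay among the 3-month arrays at 6.52 to 6.99. H2-DMa fell on its brighter probe set (-1.12 ± 0.31) and rose on the other (0.74 ± 0.23). Prf1, the perforin of T and NK cells, rose by 0.68 (SE 0.16, adjusted p = 0.014), whereas Cd3e (-0.37) and Cd8a (-0.17) did not pass. The dimmer Prf1 set gave 0.15 without a call. Of 11 neutrophil markers Ltf (-0.59 ± 0.17) and Mmp9 (-0.69 ± 0.19) fell, at levels of 2.35 to 4.09 on all 8 arrays. Mylpf, a myosin light chain of skeletal muscle, rose by 0.97 (SE 0.20, adjusted p = 0.0056), at 5.26 to 5.58 against 4.13 to 4.63, while 6 other muscle markers did not pass. Epcam (-0.55), Cryab (-0.85), Rpl37 (-0.74) and Atf6 (0.69) were the only calls of the biliary, heat-shock, ribosomal protein and unfolded protein lists. Epcam and Rpl37 were called in 4 of 8 fits with 1 array left out, Cryab and Atf6 in 1 of 8. Other probe sets gave -0.35 for Epcam, 0.06 and -0.21 for Cryab and 0.23 and 0.02 for Atf6, without a call.

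**Figure D4:**
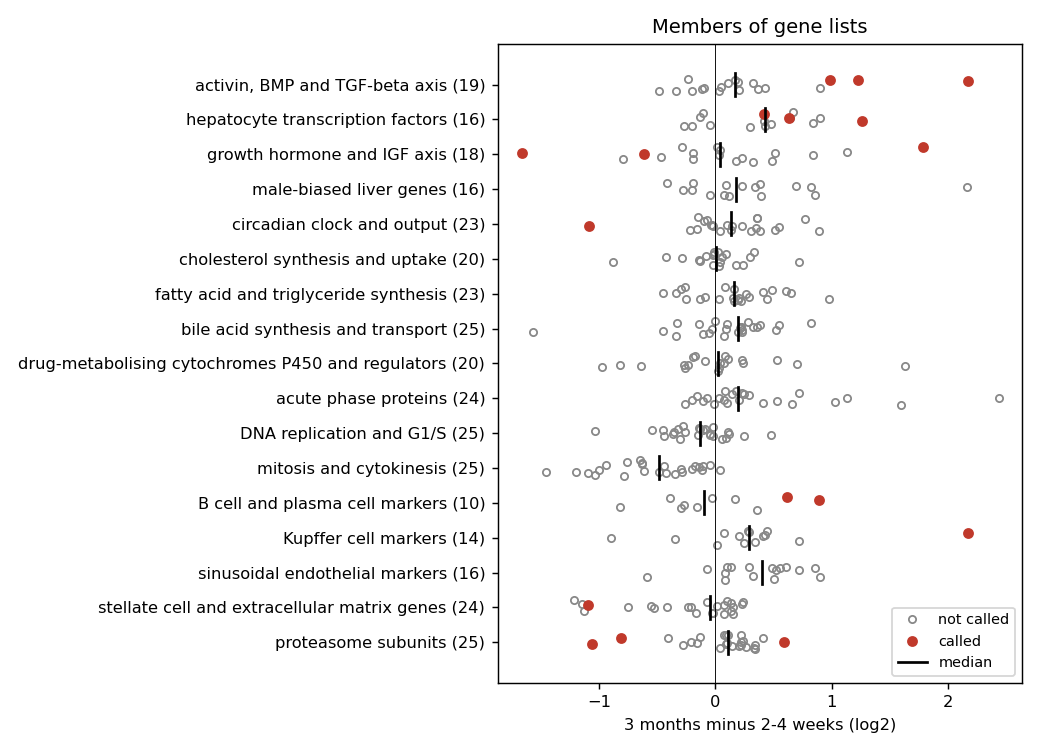
Change from 2-4 weeks to 3 months (log2, horizontal axis) of the members of 17 gene lists, with the number measured in brackets; red points were called and black bars are medians. Of the mitosis genes 24 of 25 lie below 0, with a median of -0.49 and 0 calls, and 3 of 19 activin, BMP and TGF-beta genes were called, all above 0.

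The untreated controls and the 1-week arrays place these changes in the series. Among the 979 called genes the 3-month mean was nearer to the untreated mean than the 2-4 week mean was in 157 (16%), against 31.6% of all genes tested. The share was 29.5% among called genes that differed at least 2-fold and 24.3% with the poly-A control level as a covariate. The untreated mean lay between both sides in 559, beyond the 2-4 week mean in 402 and beyond the 3-month mean in 18. The 1-week mean lay between both sides in 860 of 979 and was nearer to 3 months in 601 (61.4%), against 57.9% of all genes. These genes were selected on the contrast, so the counts are a description. Id3 showed 1 form of it: 1-week arrays at 8.38 to 9.38 and untreated arrays at 7.81 to 9.35 enclosed the 3-month values, and the 2-4 week arrays were the low ones. Pja1 showed another, with 6.36 to 7.39 at 1 week, 7.30 to 7.97 untreated and 6.03 to 6.70 at 3 months. Psmc4 at 9.30 to 9.35 and Cox15 at 6.27 to 6.52 lay below their untreated ranges of 9.86 to 10.25 and 7.15 to 7.47, and Slc29a2 at 5.65 to 6.94 lay above its untreated range of 4.08 to 4.44.

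**Figure D5:**
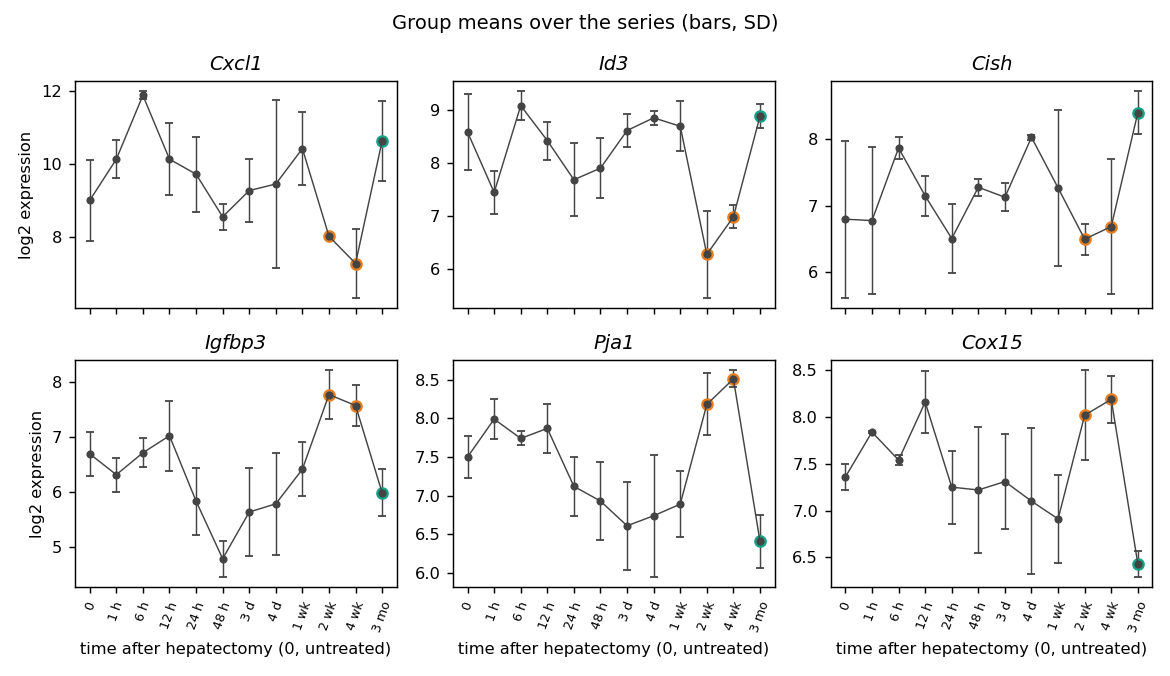
Group means of 6 genes (log2, vertical axis) at 12 points of the series, untreated and 1 hour to 3 months after hepatectomy, evenly spaced along the horizontal axis, with SD bars; the 2- and 4-week means are marked in orange and the 3-month mean in green. Cxcl1 and Id3 are lowest at 2 and 4 weeks (Id3 6.27 and 6.98) and Pja1 is highest there (8.18 and 8.51).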

How the data were processed

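The deposited values are log2 expression per probe set. The submitters' processing notes name RMA and oligo 1.52.0 as the authors' tools. RMA equalises probe intensities between arrays before they are summarised, so a change in most genes at once may not show. The median of the summarised probe sets still ran from 3.889 to 4.099 over all arrays. The sources used here do not say if the arrays were all normalized in 1 run. The platform annotation gave 34958 of 45101 probe sets a single gene, and 932 with several genes and 9211 without a listed gene were left out. Each gene took its brightest probe set. Of 18194 genes 18033 matched the GRCm38.p6 gene table.

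Group means of 51 arrays in 12 groups were fitted with limma 3.58.1 in R 4.3.3 (39 residual degrees of freedom). The contrast was the 3-month mean minus the mean of the 5 pooled arrays, two-sided, adjusted by Benjamini-Hochberg over all genes and called at 0.05. An adjusted p for a second probe set is over all probe sets. The number of arrays limits the precision. Tested on simulated data for this contrast, the fit found 24%, 88%, 96% and 100% of 50 genes each changed by 0.5, 1, 1.5 and 2, with 8 false calls. The simulated noise was independent between arrays, and each gene had the same spread in all groups. The real arrays may not meet this, so these rates need not hold for them. Alternatives changed the arrays, normalization, covariates, prior, probe set rule and threshold.

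The members, the 48 lists and the tests were chosen with earlier results of these data known. Named were up to 15 highest and 15 lowest called genes whose arrays do not overlap and whose higher mean exceeds the median of all probe sets by 1, up to 4 called members per list, and 14 index genes. Other genes were chosen after their values were seen. Some listed genes were not analysed here, and 1 gene named by this rule is not reported here.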

Additional observations from a re-analysis of the deposited data

Results flagged for a closer look

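Single arrays stood far from the other 4 of the 2-4 week arrays in 7 of 77 groups of values examined, and chance alone gives about 1 in 20. At 2-week replicate 2 the low values were Id3 at 5.69 (others 6.83 to 7.23), Zc3h13 at 5.45 (others 5.90 to 6.03) and Igf1 at 11.37 (others 11.58 to 11.65). At 4-week replicate 4 they were Arid5b at 7.79 (others 8.55 to 8.83) and Dbp at 8.30 (others 10.20 to 10.98). At 2-week replicate 1 Pja1 was low at 7.90 (others 8.42 to 8.63) and Col1a1 high at 7.16 (others 4.72 to 4.99).

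Tubb2a differed between the arrays pooled as reference, by 2.76 from 2 to 4 weeks (limma, adjusted p = 0.014), so its change to 3 months is not the same from both times.

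The 4-week array titled replicate 1, which the comparison did not use, read 12.75 for Lcn2 (untreated arrays at most 6.39) and 13.94 for Saa1 (untreated arrays at most 11.97).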

How the results depend on the processing

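Of 58 called genes named by rule, 57 kept their direction in every setting. They were chosen as called on these same arrays, so a kept direction is no independent check. Only 2 stayed called in all alternatives. Against 2 weeks alone 2 kept their call, and without 3-month replicate 3 it was 15. Hnf4a reversed to -0.08 (limma, adjusted p = 0.82) with the mean of its probe sets, and its sets oppose each other. The count of 979 genes, of which 33 were list members, became 2531 and 117 with the 8 arrays alone in 2 groups, 2175 and 114 in 3 groups, 3789 and 130 with array weights, and 2027 and 82 without 6 doubted arrays of other groups. It became 1507 and 50 with the replicate block, although the numbers do not pair the arrays (correlations -0.25 to 0.35). It fell to 482 and 19 with the hybridization covariate, 584 with the poly-A covariate, 412 and 12 against 4 weeks alone, and 9 and 1 against 2 weeks alone. A threshold of 0.01 left 115 and 4, a 2-fold minimum 149 and 10, and every probe set, added after seeing the data, gave 1859. Leaving out 1 array gave 196 to 857 genes and 7 to 33 list members. The share of called genes nearer to untreated livers at 3 months (16%) was 11.1% against 2 weeks, 21.0% with the hybridization and 24.3% with the poly-A covariate, 20.9% without low genes, 20.2% with the mean of probe sets and with quantile normalization, 29.5% at 2-fold, and 13.3% to 22.4% with 1 array left out. Between 4 and 2 weeks 4 genes differed with the 8 arrays in 3 groups and 0 to 5 with 1 array left out. The cause of these shifts was not tested. Signals near the median of all probe sets limit the immune and mitosis lists.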

Other observations

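Several genes outside the lists were picked after their values were seen and are given as values, with limma adjusted p-values. Epx, the peroxidase of eosinophils, read 3.65, 4.24 and 4.75 at 3 months and 2.76 to 3.32 at 2-4 weeks (1.24 ± 0.18, adjusted p = 0.00017), called whichever array was left out, at a level near the median of all probe sets. Ltb, a cytokine of lymphocytes, read 4.98, 5.12 and 5.90 against 4.09 to 4.65 (1.03 ± 0.18, adjusted p = 0.0016), and Mrpl34, a mitochondrial ribosomal protein, read 8.49, 8.61 and 8.37 against 7.37 to 7.73 (0.90 ± 0.19, adjusted p = 0.0077). Both stayed called whichever array was left out. Gcgr, the glucagon receptor, read 9.76, 9.79 and 9.77 against 9.15 to 9.40 (0.49 ± 0.13, adjusted p = 0.026). Il6st, the shared receptor of interleukin-6 cytokines, differed by 0.82 ± 0.22 (adjusted p = 0.022) on its brightest probe set and by -0.19 on the next.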
